A study of Mus musculus with 6 samples.

Results

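The transcripts of 10 genes that carry glucose into the cell and through glycolysis to lactate were followed in differentiated BAT cells with and without MICT1: Slc2a1, Hk1, Hk2, Gpi1, Pfkl, Pfkp, Aldoa, Pgk1, Pkm and Ldha. They were chosen by name, with earlier results of these data known, and all 10 were found among the 13283 genes of the deposited table. The cells are an immortalized mouse brown preadipocyte line that expresses Cas9 and was taken through brown adipocyte differentiation in culture. Of the 6 libraries, 3 came from MICT1 KO cells, which are pools transduced with sgRNA against MICT1 and sorted for GFP, and 3 from Scr control cells, transduced with scrambled sgRNA and labelled WT. On day 6 of differentiation the cultures of both groups received 10 µM forskolin, an activator of adenylyl cyclase that raises cAMP, for 6 h, so no library shows the unstimulated state. MICT1 is a microprotein of brown adipocytes that the study links to PKA signaling. The sgRNA was given to the cells before differentiation, so the comparison covers loss of MICT1 during differentiation as well as in stimulated cells. The paper reports lower Pparγ, C/ebpβ and Fabp4 in such knockout cells, but not after knockdown in cells already differentiated. It calls an effect of the knockout on differentiation in culture plausible. The part of such an effect in the changes below was not tested. The labels do not tell which sgRNA pool gave which MICT1 KO library.

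Glycolysis splits glucose into pyruvate in the cytosol. In its preparatory phase glucose is taken up, phosphorylated, isomerized, phosphorylated again and cleaved into triose phosphates, and in its payoff phase these are oxidized to pyruvate with a gain of ATP and NADH. Lactate dehydrogenase then turns pyruvate into lactate and returns NAD+. In brown fat, adrenergic stimulation through cAMP raises glucose uptake, and glycolysis supplies pyruvate to mitochondria and glycerol phosphate to lipid synthesis.

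The deposited value of a gene is a normalized signal, about equal to its reads divided by a size factor for the library, and it summed to between 16104616 and 16616825 per library. The level of MICT1, the targeted gene, was not analysed here and did not serve as a check of the labels. Control replicate 2 stood apart in Rn45s, the precursor of ribosomal RNA, which took 1.92% of its signal against 0.507% to 0.831% in the other libraries. Markers of adipocytes were far lower in MICT1 KO cells: of 14 listed, 12 were measured and 12 fell, and their summed signal was 124456 to 147136 in Scr and 14916 to 21333 in MICT1 KO libraries. Fabp4, the fatty acid carrier of adipocytes, went from 53343 ± 4093 (SD, n = 3) to 5461 ± 1571 (SD, n = 3), and Lpl, lipoprotein lipase, from 55039 ± 5481 (SD, n = 3) to 10184 ± 1255 (SD, n = 3). Ucp1, which defines thermogenic adipocytes, was low in both groups, at 20.8, 24.1 and 30.5 with Scr, against 1.91, 1.05 and 9.33 with MICT1 KO. Of 13 markers of preadipocytes and fibroblasts 8 were tested, 4 higher and 2 lower, with a summed signal of 45845 to 52728 in Scr and 69527 to 73510.0 in MICT1 KO libraries. Col1a1, collagen type I alpha 1, rose from 17955 ± 585 (SD, n = 3) to 30595 ± 2507 (SD, n = 3) and Dcn, the matrix proteoglycan decorin, from 365 ± 75.3 (SD, n = 3) to 9707 ± 133 (SD, n = 3). In the same list Dlk1, a marker of preadipocytes, fell from 687 ± 35.0 (SD, n = 3) to 63.9 ± 23.0 (SD, n = 3), Pdgfra also fell (log2 fold change -0.19), and the collagen genes Col3a1 (-0.047) and Col1a2 (0.059) were not called. Of 10 cycling markers 8 rose and 2 fell, with a summed signal of 44144 to 45248 in Scr and 56774 to 61142 in MICT1 KO libraries. In the other marker lists, 2 of 8 myoblast, 3 of 10 macrophage and 1 of 8 endothelial markers were measured, at summed signals of no more than 162 in any library. The part of these markers in the changes below was not tested, and in bulk RNA fewer cells of a type and less RNA per cell cannot be told apart.

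Of the 10 genes, 7 were lower in MICT1 KO cells and none was higher (limma-trend on log2(signal + 1) with Benjamini-Hochberg adjustment over 12507 genes, adjusted p under 0.05). Those that fell were Slc2a1, Hk2, Gpi1, Pfkl, Pfkp, Aldoa and Pgk1. Among all genes tested 28.3% were called lower and 28.5% higher, 56.9% in all. For the same 7 genes every MICT1 KO value lay below every Scr value, as it did for 31.2% of all genes tested (the reverse held for 30.9%, 62% in all), and in Hk1, Pkm and Ldha the groups overlapped. The median log2 fold change was -0.27 over the 10 genes and -0.0053 over all genes tested. The summed signal of the 10 genes made up 1.48% to 1.54% of the total in Scr and 1.21% to 1.28% in MICT1 KO libraries. The largest falls were those of Aldoa, Gpi1, Slc2a1 and Hk2. Genes that were called and genes that were not stood both among the early steps (Hk1 was not called) and among the late steps (Pgk1 was called, Pkm and Ldha were not), and no difference between steps was tested. Without Control replicate 2, whose Rn45s was high, 6 of the 10 were called lower.

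**Figure D1:**
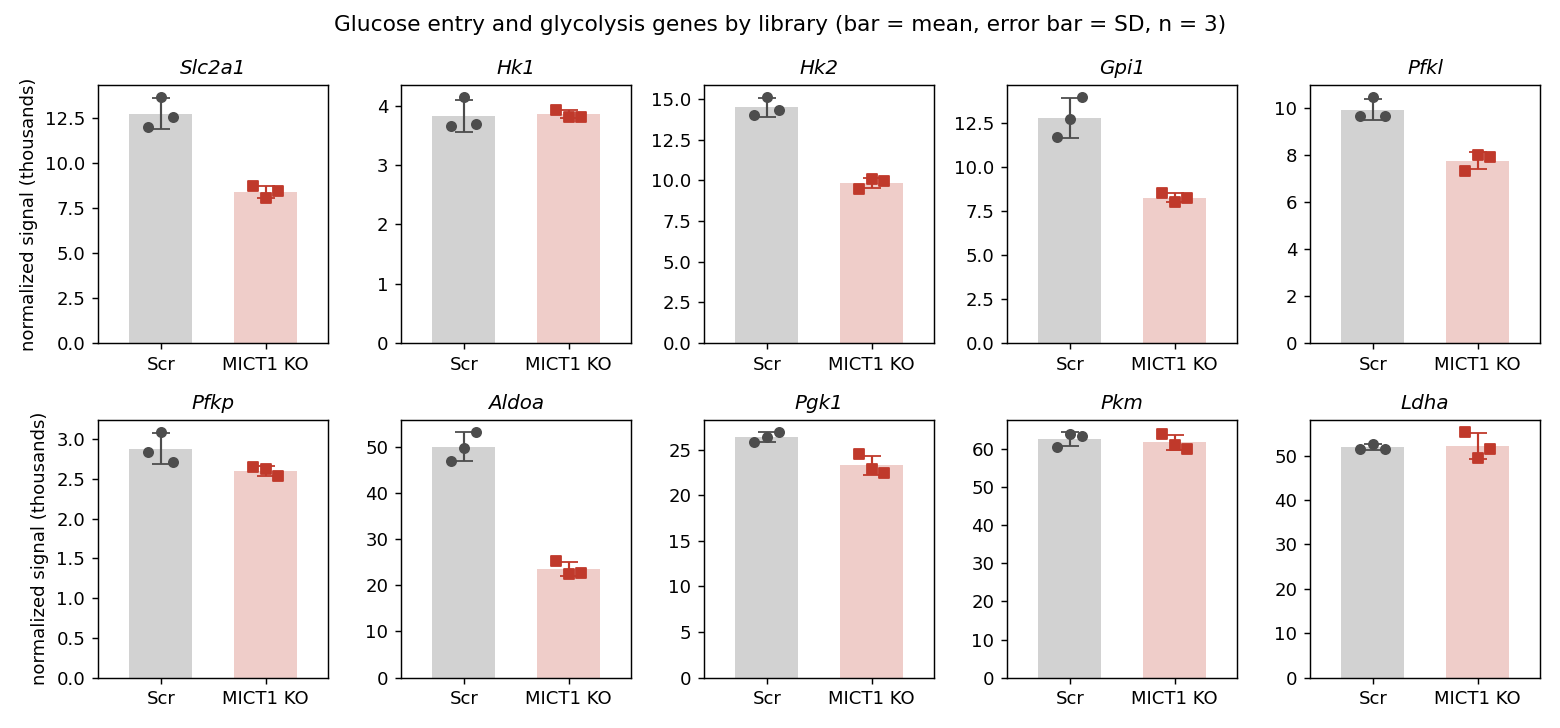
Normalized signal (vertical axis from 0, divided as its label states) of the 10 genes in the 3 Scr and 3 MICT1 KO libraries. Points are libraries, bars are means and error bars SD. Slc2a1, Hk2, Gpi1, Pfkl, Pfkp, Aldoa and Pgk1 have every MICT1 KO point below every Scr point, whereas the points overlap for Hk1, Pkm and Ldha.

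Slc2a1 (chromosome 4, 119108745 to 119137330, GRCm38) encodes GLUT1, the transporter that lets glucose into most cells without insulin. Its signal was 11985, 13657 and 12573 with Scr, against 8725, 8059 and 8435 with MICT1 KO. No MICT1 KO library came near the lowest Scr library. The mean fell from 12738 ± 848 (SD, n = 3) to 8407 ± 334 (SD, n = 3), by 34.0%, a log2 fold change of -0.60 ± 0.057 (SE, adjusted p = 1.34e-08, limma-trend).

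The hexokinases phosphorylate glucose and so trap it in the cell. Hk2 (chromosome 6, 82725025 to 82774454, GRCm38) is the isoform that insulin and other signals regulate in muscle and fat, and Hk1 (chromosome 10, 62268855 to 62379920, GRCm38) is the isoform found in most tissues. Hk2 had signals of 13999.6, 15099.7 and 14306 with Scr, against 9485, 10068 and 9954 with MICT1 KO, with the groups well apart. It fell by 32.0%, a log2 fold change of -0.56 ± 0.052 (SE, adjusted p = 1.23e-08, limma-trend). Hk1 had signals of 3659, 4144 and 3689.7 with Scr, against 3935, 3818 and 3812 with MICT1 KO, so that all 3 MICT1 KO values lay inside the Scr range. Its log2 fold change was 0.011 ± 0.058 (SE, adjusted p = 0.882), and the 95% confidence interval of the change ran from -7.34% to 9.64% of Scr. An opposite-strand gene, Hk1os, overlaps Hk1, and whether reads were counted by strand is not given in the sources used here.

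Gpi1 (chromosome 7, 34201327 to 34230336, GRCm38), the isomerase that turns glucose 6-phosphate into fructose 6-phosphate, had signals of 11686, 12733 and 13966 with Scr, against 8534, 8017 and 8209 with MICT1 KO. The Scr values spread more than the MICT1 KO values, and every one of them was higher. The fall was 35.5% (log2 fold change -0.63 ± 0.06 SE, adjusted p = 1.55e-08, limma-trend).

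Phosphofructokinase commits the sugar to glycolysis, and its subunits come from 3 genes named after liver, platelet and muscle. Pfkl (chromosome 10, 77986947 to 78009807, GRCm38), the liver type, had signals of 9651, 10442 and 9656 with Scr, against 7317, 7995 and 7918 with MICT1 KO. It fell by 21.9% (log2 fold change -0.36 ± 0.055 SE, adjusted p = 1.19e-05, limma-trend). Pfkp (chromosome 13, 6579874 to 6649060, GRCm38), the platelet type, had signals of 2831, 3088 and 2711 with Scr, against 2645, 2619 and 2532 with MICT1 KO. The highest MICT1 KO value of Pfkp lay just under the lowest Scr value. Its fall of 9.67% (log2 fold change -0.14 ± 0.06 SE, adjusted p = 0.0458, limma-trend) was no longer called without Control replicate 1 (-0.16, adjusted p = 0.0697), Control replicate 2 (-0.093, adjusted p = 0.264), KO replicate 2 (-0.15, adjusted p = 0.0678) or KO replicate 3 (-0.13, adjusted p = 0.141). The muscle type, Pfkm, was low, at 357, 298 and 338 with Scr, against 213, 260.2 and 267 with MICT1 KO, and fell with a log2 fold change of -0.43 (adjusted p = 0.00785).

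Aldoa (chromosome 7, 126795234 to 126800994, GRCm38) encodes aldolase A, which cleaves fructose 1,6-bisphosphate into triose phosphates, and showed the largest change of the 10 genes. Its signal was 46986, 49745 and 53186 with Scr, against 25277, 22485 and 22726 with MICT1 KO. The highest MICT1 KO value lay far below the lowest Scr value. The mean fell from 49972 ± 3106 (SD, n = 3) to 23496 ± 1547 (SD, n = 3), by 53.0% or 2.13-fold (log2 fold change -1.09 ± 0.061 SE, adjusted p = 3.20e-12, limma-trend). It was the only gene of the 10 that met the fold and p criteria of the study's methods, a change of 1.8-fold or more and p under 0.05, taken here as unadjusted and without the criteria of the methods on RPKM and gene length, which 7.39% of all genes tested met in the lower and 10.1% in the higher direction. Aldoc, aldolase C, fell further, from 275 ± 10.5 (SD, n = 3) to 71.0 ± 13.2 (SD, n = 3) (log2 fold change -1.95, adjusted p = 6.42e-09).

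Pgk1 and Pkm act in the payoff phase, and Ldha follows it. Pgk1 (chromosome X, 106187100 to 106203699, GRCm38), phosphoglycerate kinase, which makes the first ATP of the phase, had signals of 25806, 26322 and 26921 with Scr, against 24460.3, 22914 and 22434 with MICT1 KO. It fell by 11.7% (log2 fold change -0.18 ± 0.054 SE, adjusted p = 0.00712, limma-trend), and without KO replicate 3 it was not called (-0.15, adjusted p = 0.0571). Pkm (chromosome 9, 59656576 to 59679372, GRCm38), pyruvate kinase of muscle and of most growing cells, was the most abundant of the 10 by signal, at 60489, 63908 and 63292 with Scr, against 63929, 60955 and 60014 with MICT1 KO. The highest value was that of KO replicate 1 and the lowest that of KO replicate 3, so the Scr values lay within the MICT1 KO range. Its log2 fold change was -0.022 ± 0.057 (SE, adjusted p = 0.766), with a 95% confidence interval of -9.26% to 6.94% of Scr. The values do not separate the M1 and M2 splice forms of Pkm. Ldha (chromosome 7, 46842274 to 46855627, GRCm38), the lactate dehydrogenase subunit of muscle and of fast glycolysis, had signals of 51471, 52637 and 51465 with Scr, against 55319, 49566 and 51492 with MICT1 KO. The Scr values again lay within the MICT1 KO range, and the log2 fold change was 0.006 ± 0.058 (SE, adjusted p = 0.937), with an interval of -7.59% to 9.12%. Among the MICT1 KO libraries, KO replicate 1 held the highest value in 8 of the 10 genes, and among the Scr libraries Control replicate 2 held it in 7.

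HIF proteins bind the core ACGTG or GCGTG, and MYC and related factors bind the E-box CACGTG, which contains ACGTG. These letters were searched on both strands in the 250 bases before RefSeq starts of the 10 genes (GRCm38.p6), 15 windows in all. Only starts held in the promoter reference were searched. Ldha, for example, begins at 46842274, but its windows end at 46845803 and 46847081, so not every outer start was covered. A match to ACGTG or GCGTG lay in 11 of the 15 windows, against 38.6% of 32851 windows of the reference. The reference windows were not matched to those of the 10 genes for base composition. The Aldoa windows with a match overlap and share a single ACGTG site, which is counted in both. By gene, 9 of the 10 had a match in at least 1 window, all but Gpi1, but genes with several windows have more chances of a match and no share per gene was computed for the reference. ACGTG lay in 7 windows (16.6% of the reference windows), GCGTG in 5 (28.2%) and CACGTG in 1 (6.02%). The cAMP response element TGACGTCA, searched after the values were seen because all cultures had forskolin, lay in 1 (1.55%). A match is only a match of letters, and no binding was measured here. To set beside the values above, the windows of Aldoa and Hk2, which fell clearly, of Pgk1 and of Ldha, which was not called, are shown 5′ to 3′ on the strand of the gene, with matches to any of these motifs in capitals.
Aldoa, chr7:126799255-126799504, - strand: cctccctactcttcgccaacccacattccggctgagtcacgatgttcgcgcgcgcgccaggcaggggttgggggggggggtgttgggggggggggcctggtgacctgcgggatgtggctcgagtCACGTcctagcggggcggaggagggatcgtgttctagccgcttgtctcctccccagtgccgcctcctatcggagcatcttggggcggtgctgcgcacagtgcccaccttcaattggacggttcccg
Hk2, chr6:82774455-82774704, - strand: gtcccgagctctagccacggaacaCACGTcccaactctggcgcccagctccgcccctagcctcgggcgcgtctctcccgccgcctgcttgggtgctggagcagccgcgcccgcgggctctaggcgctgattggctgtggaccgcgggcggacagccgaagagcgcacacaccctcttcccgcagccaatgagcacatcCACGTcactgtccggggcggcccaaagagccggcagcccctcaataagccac
Pgk1, chrX:106186850-106187099, + strand: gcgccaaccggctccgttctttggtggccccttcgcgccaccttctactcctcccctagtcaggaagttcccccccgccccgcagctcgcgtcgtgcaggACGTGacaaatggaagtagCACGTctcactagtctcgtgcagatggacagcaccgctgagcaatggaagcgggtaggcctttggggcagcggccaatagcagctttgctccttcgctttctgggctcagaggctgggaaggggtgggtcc
Ldha, chr7:46845554-46845803, + strand: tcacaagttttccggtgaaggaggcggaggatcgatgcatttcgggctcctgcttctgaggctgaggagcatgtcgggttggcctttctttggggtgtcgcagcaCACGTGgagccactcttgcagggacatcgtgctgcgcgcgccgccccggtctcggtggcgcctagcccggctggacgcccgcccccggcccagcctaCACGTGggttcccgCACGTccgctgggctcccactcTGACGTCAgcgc
None of these 4 windows overlaps a GENCODE exon. The Aldoa window has 1 match to ACGTG, which begins 126 bases before the start, and the Hk2 window has 2, at 226 and 52 bases. In Pgk1 they begin 150 and 131 bases before the start. The Ldha window holds 2 E-boxes, at 145 and 48 bases, a further ACGTG match at 34 bases, and the cAMP response element at 12 bases.

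The enzymes of the other steps were read from a list of 21 further glycolytic genes, of which 14 were tested, 5 lower and 3 higher, with a median log2 fold change of -0.11. Besides Pfkm and Aldoc, those lower were Gapdh, Pgam1 and Eno2. Tpi1, triose phosphate isomerase, went from 24165 ± 1167 (SD, n = 3) to 24470.0 ± 1618 (SD, n = 3) (log2 fold change 0.017, adjusted p = 0.823, limma-trend). Gapdh, the dehydrogenase that follows it, fell from 27163 ± 2007 (SD, n = 3) to 20632 ± 1711 (SD, n = 3) (log2 fold change -0.40, adjusted p = 2.36e-05), and Pgam1, phosphoglycerate mutase, from 25460.3 ± 1349 (SD, n = 3) to 20802 ± 643 (SD, n = 3) (log2 fold change -0.29, adjusted p = 0.000137). Enolase went the other way: Eno1 rose from 14840.0 ± 721 (SD, n = 3) to 17309 ± 1926 (SD, n = 3) (log2 fold change 0.22, adjusted p = 0.00815) and Eno1b from 32019.5 ± 1308 (SD, n = 3) to 37989 ± 1444 (SD, n = 3) (log2 fold change 0.25, adjusted p = 0.000761). Eno1b is a near-identical copy of Eno1, so the split of reads between them is uncertain, and Eno1 alone was not called without KO replicate 1 (0.13, adjusted p = 0.0556). Eno2, the enolase of neurons, fell from 2212 ± 136 (SD, n = 3) to 1581 ± 63.1 (SD, n = 3) (log2 fold change -0.48, adjusted p = 1.82e-06). Adpgk, which phosphorylates glucose with ADP, rose (log2 fold change 0.33, adjusted p = 0.000807). Pgam2, Bpgm, Eno3 and Ldhb were not called, with log2 fold changes of -0.64, 0.35, 0.16 and -0.24. Bpgm was called higher in 4 other fits, without Control replicate 2 (0.44, adjusted p = 0.0407), without KO replicate 3 (0.44, adjusted p = 0.0333), with a mean of at least 100 (0.35, adjusted p = 0.0494) and with a block for the replicate number (0.35, adjusted p = 0.0497). Highly expressed glycolytic genes such as Gapdh have processed pseudogenes, and how shared reads were assigned is not given in the sources used here.

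**Figure D2:**
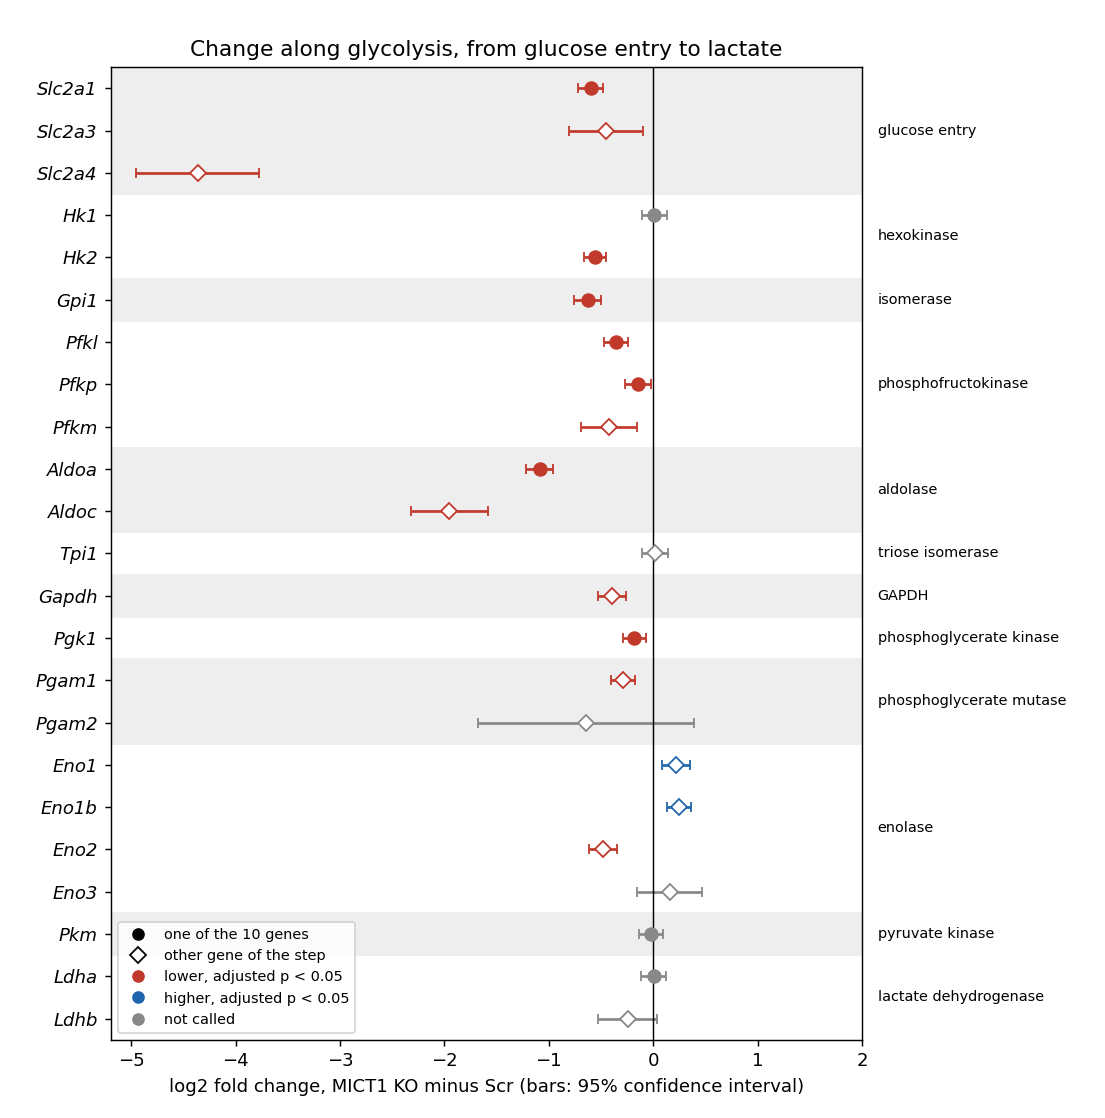
Log2 fold change, MICT1 KO minus Scr (horizontal axis), with its 95% confidence interval, of genes ordered by step from glucose entry at the top to lactate dehydrogenase at the bottom. Filled circles are the 10 genes and open diamonds other genes of the same step, red where lower, blue where higher and grey where not called. Aldoa sits at -1.09 and Slc2a1, Hk2 and Gpi1 near -0.6, while Hk1, Tpi1, Pkm and Ldha lie near 0.

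Levels can be compared between genes only per length. The joined exons used here, from 2244 bases for Pgk1 to 13401 for Pfkp, can be longer than the transcript expressed. The order of genes therefore depends on this choice, whereas the change of a gene between groups does not. As signal per kilobase of exon (GENCODE vM21, all exons of a gene joined), the order of the 10 genes in Scr libraries was Ldha at 15667 ± 204, Aldoa at 13469.6 ± 837, Pkm at 12510.1 ± 364, Pgk1 at 11742 ± 249 and Slc2a1 at 3633 ± 242 (SD, n = 3). Hk2 (2424 ± 95.1), Gpi1 (1983 ± 177), Pfkl (1486 ± 68.2), Hk1 (449 ± 31.9) and Pfkp (215 ± 14.4) followed on the same scale. Only Aldoa and Pkm, neighbours in that order, overlapped between libraries. In MICT1 KO libraries Aldoa ranked 4, at 6333 ± 417 per kilobase, below Pkm at 12324 ± 409 and Pgk1 at 10369.7 ± 472, and no neighbours overlapped. Ldha stayed at the top, at 15748 ± 885 per kilobase, and the order of the 6 lowest genes was the same in both groups.

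A ratio of partner isozymes within a library does not depend on how libraries were scaled. Shares per length rest on the same joined exons, such as 3340 bases for Pfkm and 13401 for Pfkp, so their size depends on that choice. The log2 ratios used signals not divided by length. By signal per length, Hk2 made up 83.9% to 84.7% in Scr and 77.5% to 79.0% in MICT1 KO libraries of the summed Hk1 and Hk2. The log2 ratio of Hk2 over Hk1 signals was 1.94, 1.87 and 1.95 with Scr, against 1.27, 1.40 and 1.38 with MICT1 KO, -0.57 on average between the groups. Pfkl was the main phosphofructokinase, with 82.0% to 83.0% in Scr and 80.8% to 81.5% in MICT1 KO libraries, and Pfkp had 11.6% to 12.2% in Scr and 13.0% to 14.5% in MICT1 KO libraries of the summed Pfkl, Pfkp and Pfkm. The log2 ratio of Pfkp over Pfkl was -1.77, -1.76 and -1.83 with Scr, against -1.47, -1.61 and -1.64 with MICT1 KO, a difference of 0.21. Aldoa, Ldha and Slc2a1 each dominated their partners per length, with at least 99.3% of the aldolases Aldoa and Aldoc, 98.8% of Ldha and Ldhb, and 97.0% of Slc2a1, Slc2a3 and Slc2a4 in every library. Slc2a3 made up 0.613% to 0.692% in Scr and 0.593% to 0.866% in MICT1 KO libraries, which overlap. Its ratio to Slc2a1 was not among the pairs. For the pairs that follow, the log2 ratio was lower in every MICT1 KO library than in any Scr library. The difference was -0.87 for Aldoc over Aldoa, -0.25 for Ldhb over Ldha, -3.77 for Slc2a4 over Slc2a1 and -0.70 for Eno2 over Eno1. In these 6 of 8 pairs the groups did not overlap. Of all single genes tested 62% did not overlap either, and no such share was computed for ratios. Each of the 6 pairs had p = 0.1 by a two-sided exact permutation test over the 20 assignments of the libraries (0.133 adjusted over the 8 pairs). A p of 0.1 is the smallest that 3 against 3 can give. For Pfkm over Pfkl (difference -0.069, exact p = 0.6) and Pgam2 over Pgam1 (-0.35, exact p = 0.8) the groups overlapped.

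**Figure D3:**
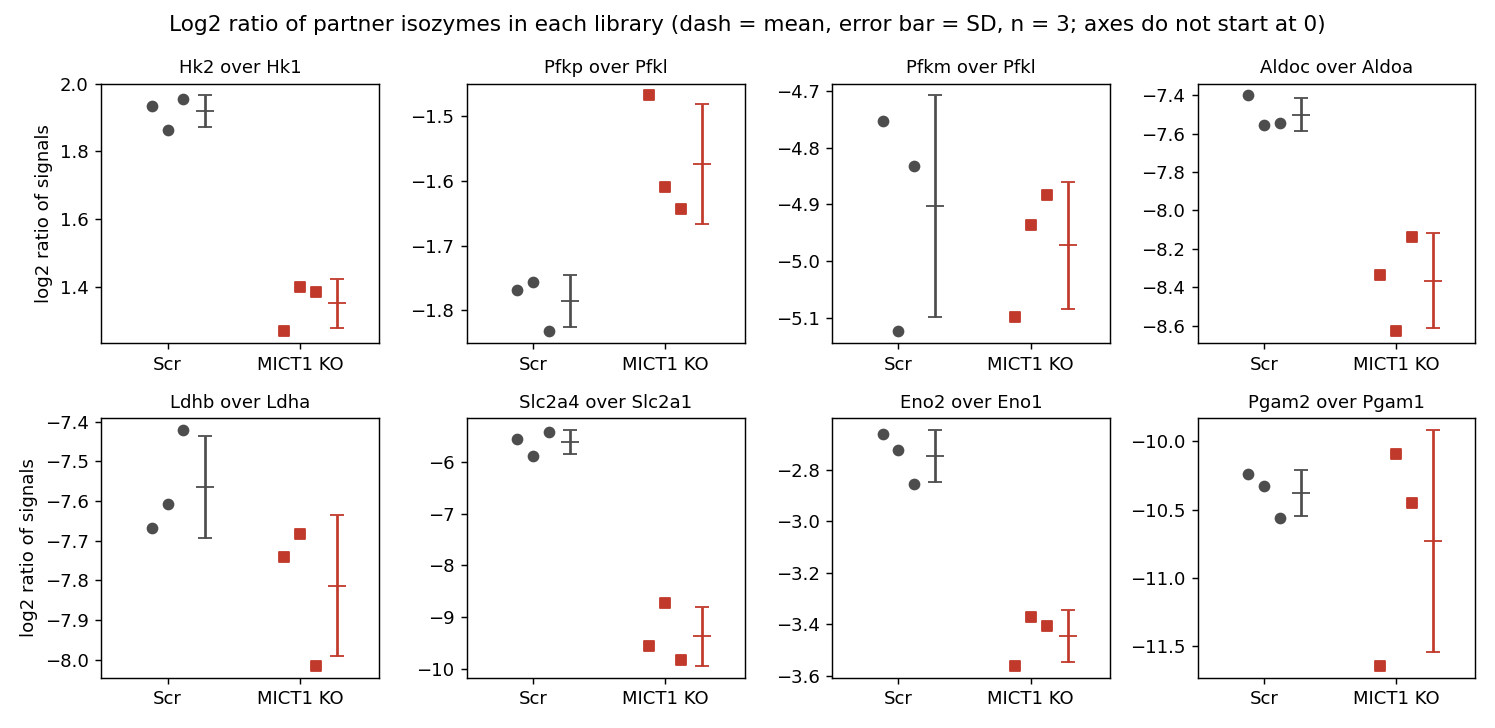
Log2 ratio of the normalized signals of partner isozymes (vertical axis, not from 0) in the 3 Scr and 3 MICT1 KO libraries, with the mean (dash) and SD (error bar). Points of the groups do not overlap for 6 pairs, of which only Pfkp over Pfkl is higher in MICT1 KO libraries, and overlap for Pfkm over Pfkl and Pgam2 over Pgam1.

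Around the 10 genes, lists of 107 further genes of glucose metabolism and its control held 88 tested genes, 45 lower and 19 higher. Of all genes tested, 28.3% were called lower and 28.5% higher, shares to set beside the count of each list. No list was tested as a set. Of 10 other glucose transporters 6 were tested, 3 higher and 2 lower. Slc2a4, the insulin-responsive GLUT4, had signals of 255, 233 and 294 with Scr, against 10.5, 17.9 and 8.29 with MICT1 KO. It fell 21.3-fold (log2 fold change -4.37, adjusted p = 3.04e-11, limma-trend). Slc2a3, GLUT3, also fell (log2 fold change -0.45, adjusted p = 0.0303), but was not called without Control replicate 2 (-0.43, adjusted p = 0.0792), Control replicate 3 (-0.40, adjusted p = 0.0943), KO replicate 1 (-0.33, adjusted p = 0.128) or KO replicate 2 (-0.43, adjusted p = 0.0647). Slc2a9 (log2 fold change 1.37), a urate carrier of the family, Slc2a6 (1.78) and Slc2a10 (0.96) rose, from Scr means of 38.5, 13.8 and 65.6.

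Fructose 2,6-bisphosphate is the strongest activator of phosphofructokinase, and the Pfkfb enzymes make and break it. Of 7 genes listed for fructose bisphosphate control, 5 were tested and 3 fell. Pfkfb3, whose product mainly makes the activator, had signals of 6539, 6566 and 6323 with Scr, against 2652, 2608 and 2643 with MICT1 KO. The replicates lay close together and the groups far apart, a 2.46-fold fall (log2 fold change -1.30 ± 0.052 SE, adjusted p = 1.20e-14, limma-trend). Pfkfb4 (log2 fold change -0.75) and Pfkfb1 (-0.80) fell from lower levels, and Pfkfb2 (0.19) and Tigar (0.20), which breaks the activator down, were not called.

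Lactate leaves and enters cells through monocarboxylate transporters. Of 6 genes listed 4 were tested, 1 lower and 3 higher. Slc16a1, which encodes MCT1, fell from 12569.7 ± 326 (SD, n = 3) to 7807 ± 283 (SD, n = 3) (log2 fold change -0.69, adjusted p = 3.68e-10, limma-trend), whereas Slc16a3, which encodes the lactate exporter MCT4, rose from 4809.8 ± 231 (SD, n = 3) to 7183 ± 37.7 (SD, n = 3) (log2 fold change 0.58, adjusted p = 7.86e-09). Per length of joined exons, Slc16a3 made up 23.7% to 24.5% in Scr and 42.5% to 44.4% in MICT1 KO libraries of the summed pair. Chaperones of monocarboxylate transporters also rose, Bsg (basigin) with a log2 fold change of 0.22 and Emb (embigin) of 0.86.

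The pentose phosphate pathway leaves glycolysis at glucose 6-phosphate, makes NADPH and returns sugars to it. Of its 9 genes 8 were tested, 6 fell and none rose, with a median log2 fold change of -0.42. Taldo1, transaldolase, fell from 2870.1 ± 146 (SD, n = 3) to 957 ± 60.9 (SD, n = 3) (log2 fold change -1.58, adjusted p = 2.91e-14, limma-trend). Pgd (-0.65), Rpia (-0.56) and G6pdx (-0.49), the entry enzyme, followed on the log2 scale, and Rpe (0.057) was not called. Of 15 glycogen genes 14 were tested, 8 lower and 2 higher. The largest falls were those of the targeting subunits that bring protein phosphatase 1 to glycogen, Ppp1r3c (log2 fold change -1.77, adjusted p = 6.60e-12) and Ppp1r3b (-1.08, adjusted p = 8.86e-12), and of Gys1, glycogen synthase (-0.84, adjusted p = 6.37e-10). The phosphorylase of brain, Pygb, rose (0.70), as did Phkg2 (0.82), a subunit of phosphorylase kinase, while the phosphorylases of liver and muscle, Pygl (0.20) and Pygm (0.31), were not called.

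Of 18 regulators of the pathway 17 were tested, 10 lower and 2 higher. Hif1a, the oxygen-regulated activator of glycolytic genes, stood at 9646, 10211 and 9613 with Scr, against 10635, 10386 and 10921 with MICT1 KO (log2 fold change 0.12, adjusted p = 0.0596, limma-trend). It was not called, although it was by limma-voom (adjusted p = 0.0432) and when scaled by library totals (adjusted p = 0.0387). Such transcript levels do not show the protein, which oxygen controls after translation. The prolyl hydroxylases that mark the HIF proteins for breakdown fell in Egln3, from 8308 ± 368 (SD, n = 3) to 2931 ± 330.0 (SD, n = 3) (log2 fold change -1.51, adjusted p = 8.68e-14), and in Egln1 (-0.76, adjusted p = 1.14e-09), and Egln2 (0.03) was not called. Also called lower among the regulators were Arnt (-0.34, adjusted p = 5.41e-05) and Vhl (-0.51, adjusted p = 5.95e-07). Epas1 was called lower as well (-0.52, adjusted p = 0.0191), but not in all other fits. Myc, another activator of glycolytic genes, fell by 11.7% with overlapping groups (log2 fold change -0.18, adjusted p = 0.0241), and was not called without Control replicate 2 (-0.16, adjusted p = 0.0923), Control replicate 3 (-0.12, adjusted p = 0.137) or KO replicate 2 (-0.14, adjusted p = 0.101). The arrestin-like genes Txnip and Arrdc4, whose products restrain glucose uptake and whose transcription follows sugar phosphates, rose. Txnip had signals of 7309, 8349.8 and 6969.5 with Scr, against 20852, 18469.8 and 18593 with MICT1 KO, every MICT1 KO value far above every Scr value (log2 fold change 1.36 ± 0.065 SE, adjusted p = 2.27e-13), and Arrdc4 a log2 fold change of 0.68. Esrra, an orphan nuclear receptor of energy metabolism, was not called (0.076).

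Several of the 10 genes are known HIF targets, so targets outside glycolysis were read beside them. Of 21 listed 20 were tested, 10 lower and 6 higher, with a median log2 fold change of -0.13. Among all genes tested, 28.3% were called lower and 28.5% higher. Bnip3, a mitophagy receptor, fell from 13768 ± 1111 (SD, n = 3) to 5304 ± 76.8 (SD, n = 3) (log2 fold change -1.37, adjusted p = 2.74e-14, limma-trend), Ndrg1 by 1.21 on the log2 scale and Pdk1, the kinase that keeps pyruvate from mitochondria, by 0.83. In contrast, Car12, a carbonic anhydrase at the cell surface, rose from 339.8 ± 26.9 (SD, n = 3) to 1626 ± 154 (SD, n = 3) (log2 fold change 2.25, adjusted p = 9.42e-15) and Lox, which crosslinks collagen, from 9226 ± 246 (SD, n = 3) to 26362 ± 1524 (SD, n = 3) (log2 fold change 1.51, adjusted p = 2.13e-15). Adm (0.61), Plod2 (0.58), Mif (0.43) and Car9 (0.33) also rose, and P4ha2 (0.065) and Fam162a (0.049) were not called.

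**Figure D4:**
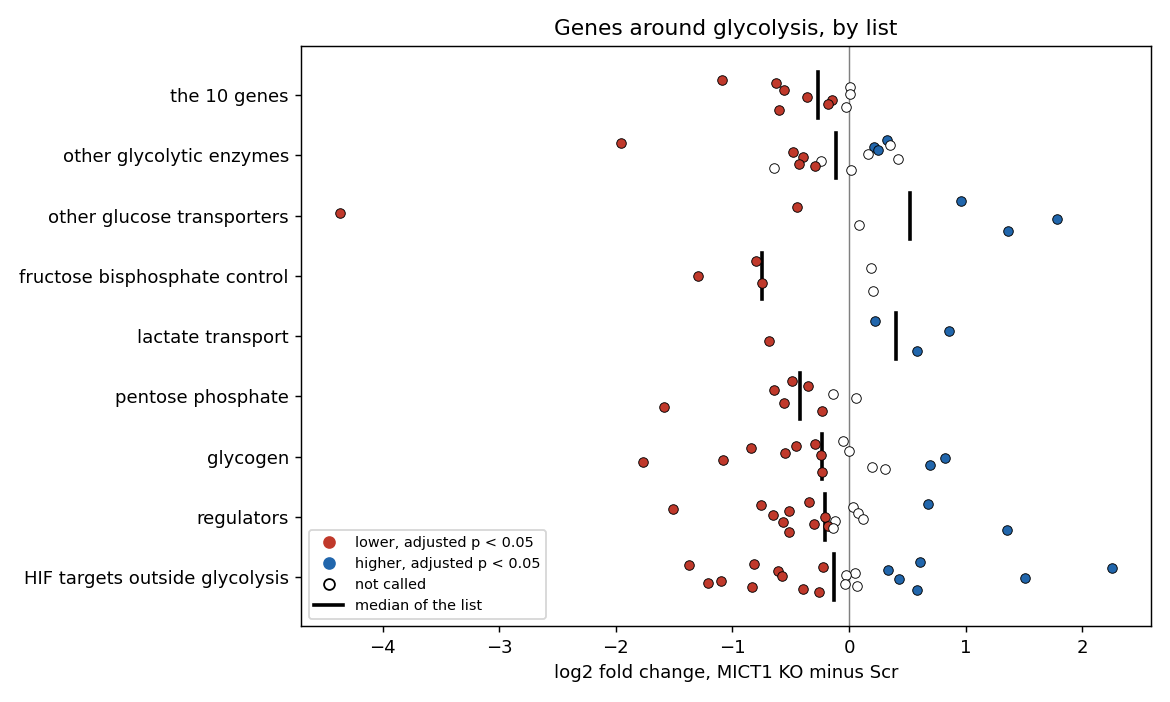
Log2 fold change, MICT1 KO minus Scr (horizontal axis), of each tested gene of the 10 and of 8 lists around them (rows). Points are genes, red where lower, blue where higher and white where not called, and black bars are medians. The pentose phosphate and fructose bisphosphate rows hold no blue point, whereas the HIF targets hold 10 red and 6 blue points.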

How the data were processed

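RNA was measured in 6 libraries, 3 MICT1 KO and 3 Scr, grouped by the sample labels. According to the methods and the submitters' processing notes, reads were aligned to GRCm38 (mm10) with Partek software, and STAR and DESeq2 are also named there. The counting model and gene annotation are not given in the sources used here. The authors deposited a normalized signal per gene, not counts. No count test was therefore used. Columns were matched to samples by name.

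The signal was compared as log2(signal + 1) with limma-trend (limma 3.58.1, R 4.3.3), genotype being the only term, for the 12507 genes that reached 10 in 3 or more libraries, with Benjamini-Hochberg adjustment over all of them. All 10 genes passed this filter, while 776 genes of the table did not. Fold changes on this scale understate changes of low values. Differences in isozyme ratios used an exact permutation test (scipy 1.17.1). The 10 genes, the lists around them and the naming rule were chosen with earlier results of these data known. Genes named were the 10, their isozyme partners, up to 4 largest changes called in each list and genes against the direction of their list, Txnip, Hif1a and Myc, and the most abundant markers. Ucp1, Dcn, Dlk1, Pdgfra, Pdk1, Arnt, Vhl, Epas1 and the libraries' Rn45s, outside this rule, were named after their values were seen. Positions and promoters come from RefSeq (GRCm38.p6), and all 10 symbols matched. Of the genes in these lists, 1 is counted but its result is not reported here. The functions were tested on simulated data.

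Sequencing depth before scaling is not stated with the values and was not worked out from them, so no counting interval is printed. All replicates are called biological by the study, and p-values measure the spread between the 3 libraries of each group, from a single cell line. Whether the libraries of a group came from a single transduced pool is not given by the labels. Loss of MICT1 and differences between pools can therefore not be told apart by these p-values. Alternatives were other scalings (library totals, trimmed mean of M values), filters (none, or a mean of at least 100), pseudocounts (0.5 and 5), limma-voom, a block for the replicate number, leaving out each library, and the fold and p criteria of the methods (1.8-fold).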

Additional observations from a re-analysis of the deposited data

How the results depend on the processing

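Under the 14 other fits, 8 of the 10 genes kept their side of the threshold: Slc2a1, Hk2, Gpi1, Pfkl and Aldoa were called lower in all of them and Hk1, Pkm and Ldha in none. Those not called without certain libraries were Pfkp, whose log2 fold change ranged from -0.19 to -0.093 as each library was left out, and Pgk1, from -0.22 to -0.15. The count of genes called lower lay between 5 and 7 with a library left out and was 7 under the other fits. By the fold and p criteria of the methods (1.8-fold) it was 1. Of the 88 genes around them, 78 kept their side in all of these fits and none reversed a call. Those that changed side were Bpgm, Eno1, Epas1, Hif1a, Mlx, Myc, Pgls, Phkb, Slc2a3 and Ugp2, and the cause was not tested. Scaling moved the median of all genes by less than 0.005 on the log2 scale.

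The replicate number as a block also gave 7 genes called lower, with 7055 genes called in all against 7113 without it. Deviations of libraries with the same number correlated at -0.024, -0.016 and 0.064, and not every library correlated best with its own number, so the numbers were not taken as pairs. For the isozyme ratios 3 against 3 libraries cannot pass the threshold under any setting, and with Eno1 and Eno1b summed, chosen after seeing the data, the difference for Eno2 was -0.72.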
